A study of Mus musculus with 51 samples.

Results

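The genotype-by-neuron-type interaction at 8 months is the mutant effect in midbrain dopaminergic (mDA) neurons minus the mutant effect in serotonergic (5HT) neurons. It was taken over the 24 libraries labelled 8 months, of the 51 in the series: 8 mDA mutant, 8 mDA wt, 4 5HT mutant and 4 5HT wt. The mDA libraries came from DatCreEed mice and the 5HT libraries from SertCreEed mice, strain names that join a Cre driver to the Polycomb gene Eed. Genotypes were labelled PRC2 mutant and wt, and the labels give neither the alleles of the wt animals nor whether they carry Cre. The cells were sorted from adult midbrain by flow cytometry and made into Smart-seq2 libraries, a full-length cDNA method for few cells. Each library was labelled as its own biological replicate. The comparison asks which changes after the loss of PRC2 function are shared by both neuron types and which differ between them.

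Polycomb repressive complex 2 methylates lysine 27 of histone H3 and keeps developmental regulators silent in cells that do not use them. EED is the core subunit that binds the methylated histone and that the complex needs for its activity. Dopaminergic and serotonergic neurons each use their own set of transcription factors and transmitter genes, and share the vesicular transporter VMAT2 (Slc18a2) and the decarboxylase Ddc.

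The libraries held 1644460 to 12250492 counts, so that 3 counts corresponded to 0.24 to 1.81 CPM, a count scaled to the library's TMM-adjusted total. The labelled neuron types were checked by their defining transcripts in wt libraries. Th, which makes the dopamine precursor, averaged 1724 ± 331 CPM in mDA wt and 21.0 ± 10.1 CPM in 5HT wt (SD, n = 8 and 4), and Tph2, which makes the serotonin precursor, averaged 5.96 ± 9.06 CPM in mDA wt and 2767 ± 533 CPM in 5HT wt. Eed itself averaged 22.7 ± 9.41 CPM in mDA mutants against 13.8 ± 3.34 CPM in mDA wt, and 17.8 ± 5.61 CPM in 5HT mutants against 13.6 ± 2.24 CPM in 5HT wt (SD, n = 8, 8, 4 and 4). Neither difference passed the test (edgeR quasi-likelihood, adjusted p = 0.353 and 0.787), and a count over the whole gene does not check a deletion of part of it. The HOX genes, which are silent in most adult midbrain cells, had a summed level of 245 to 782 CPM in mDA mutants against 5.80 to 52.98 CPM in mDA wt, and 406 to 570 CPM in 5HT mutants against 6.50 to 12.7 CPM in 5HT wt. The 13 endothelial and mural markers summed to between 11.4 and 1134 CPM in mDA mutants against 12.5 to 62.6 CPM in mDA wt, and to 94.5 to 189 CPM in 5HT mutants against 103 to 122 CPM in 5HT wt. The high mDA values came from the mutants D161, D170 and D176, of the mDA set labelled set2, and none of the 13 markers was without counts in any group. The 15 astrocyte markers summed to 741 to 3394 CPM in mDA mutants against 502 to 993 CPM in mDA wt, with the highest value again in D176. In sorted bulk samples, fewer cells of a type and less RNA per cell cannot be told apart.

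Genes that rose in mutants of either neuron type mostly had a positive effect in the other, and few passed the test of a difference between the types. For genes nearly silent in wt, that sign was nearly fixed by the filter on low counts. A gene was called where edgeR's quasi-likelihood test gave an adjusted p under 0.05 over the 16873 genes tested. The fitted mDA effects compare mutants and wt within set1 and set2, since set3 held wt libraries alone and had its own term. In mDA neurons 305 genes were higher (1.81%) and 141 lower (0.836%) in mutants. In 5HT neurons 170 genes were higher (1.01%) and 43 lower (0.255%). The interaction was called for 45 genes, 17 positive (0.101%) and 28 negative (0.166%), and 1278 genes had an unadjusted p under 0.05. Positive means that the mutant effect was higher in mDA neurons than in 5HT neurons. Of the 28 negative calls, 6 were rows of near-identical vomeronasal receptor copies (Vmn1r) between which reads cannot be assigned with certainty. Their interaction lay between -7.63 and -6.81 on the log2 scale, and they are left aside below as uncertain, which leaves 39 genes. Without D161, D170 and D176 the interaction was called for 19 genes, 6 positive and 13 negative.

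**Figure D1:**
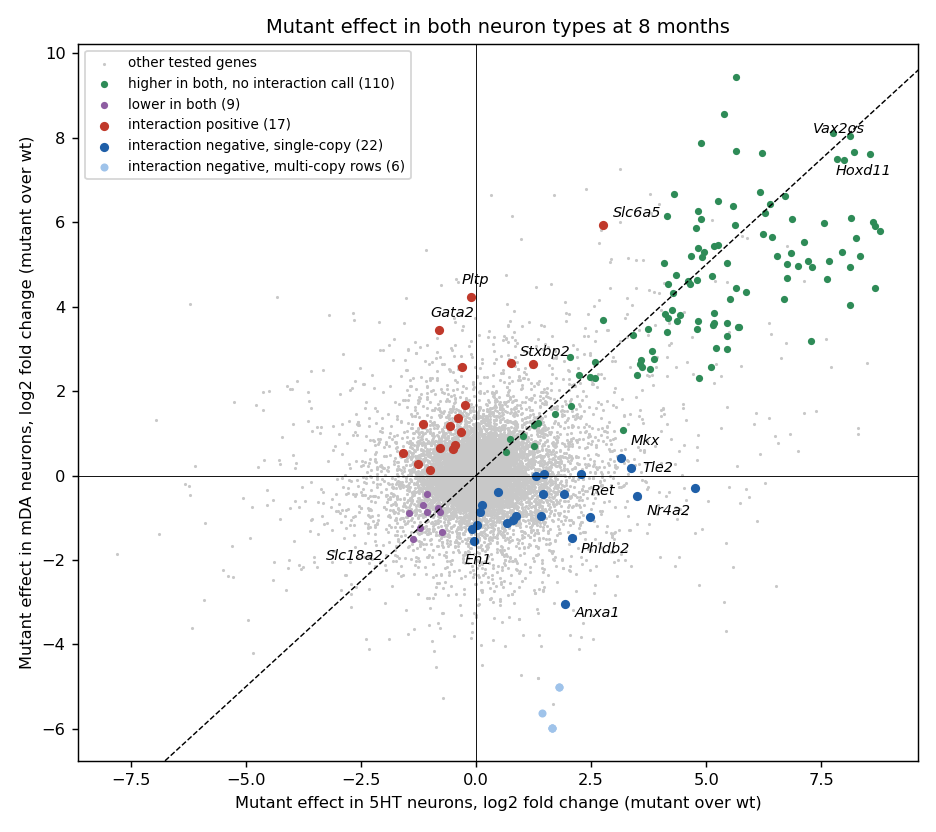
Log2 fold change of mutant over wt in mDA neurons (vertical) against that in 5HT neurons (horizontal), 1 point per tested gene. The dashed line marks equal effects. The 110 genes called higher in both without an interaction call lie in the upper right, the 17 positive interaction genes above the line and the 22 single-copy negative ones below it.

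PRC2 is known to act at promoters rich in CG dinucleotides. To show examples of each class, the 250 bases before the first start in RefSeq's promoter table (GRCm38.p6) are printed for 2 genes higher in both neuron types, Pax6 (chr2:105668646-105668895, plus strand) and Vax2os (chr6:83712202-83712451, minus strand), for Gata2 (chr6:88193641-88193890, plus strand), which rose in mDA neurons alone, and for Nr4a2 (chr2:57124004-57124253, minus strand), which rose in 5HT neurons alone. Sequences run 5′ to 3′ on the gene's strand, and capitals mark each CG, which reads the same on both strands.
Pax6: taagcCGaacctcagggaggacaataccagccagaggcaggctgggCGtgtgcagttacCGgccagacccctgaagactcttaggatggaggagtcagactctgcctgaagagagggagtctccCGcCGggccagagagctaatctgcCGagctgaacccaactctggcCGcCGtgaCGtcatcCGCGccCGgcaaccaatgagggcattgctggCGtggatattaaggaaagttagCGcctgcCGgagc
Vax2os: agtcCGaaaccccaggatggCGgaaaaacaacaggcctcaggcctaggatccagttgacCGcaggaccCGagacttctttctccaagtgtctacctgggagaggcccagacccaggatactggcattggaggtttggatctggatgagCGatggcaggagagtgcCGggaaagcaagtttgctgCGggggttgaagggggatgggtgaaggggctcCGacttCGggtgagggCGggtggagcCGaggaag
Gata2: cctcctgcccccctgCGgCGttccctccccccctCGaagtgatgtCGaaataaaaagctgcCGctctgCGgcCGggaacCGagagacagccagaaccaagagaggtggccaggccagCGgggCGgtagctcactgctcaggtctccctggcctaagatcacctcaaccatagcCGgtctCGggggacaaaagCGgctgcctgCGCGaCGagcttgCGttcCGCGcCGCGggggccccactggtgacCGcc
Nr4a2: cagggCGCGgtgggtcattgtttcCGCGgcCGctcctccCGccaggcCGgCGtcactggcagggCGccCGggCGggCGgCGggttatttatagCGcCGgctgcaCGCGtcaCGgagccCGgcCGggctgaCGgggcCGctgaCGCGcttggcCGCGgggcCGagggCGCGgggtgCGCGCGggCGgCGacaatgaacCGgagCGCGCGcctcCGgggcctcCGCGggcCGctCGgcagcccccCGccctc
CG occurred 15 times in the Pax6 window, 11 times for Vax2os, 22 times for Gata2 and 44 times for Nr4a2. Over the 27025 genes with a promoter in the table the median was 6, and 91.7% held at least 1. These 4 windows were picked as examples, and since 73.4% of the tested genes had a promoter in the table, the classes were not compared.

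Genes raised more in mDA neurons were led by a serotonergic transcription factor. Of the 17 positive genes, 14 rose in mDA mutants, of which 10 were not called in 5HT neurons, 3 also rose there and 1 fell there, and the other 3 fell in 5HT mutants alone. The mDA effect of the 14 ranged over 0.64 to 5.93 on the log2 scale, with a median of 1.51. The interaction of all 17 ranged over 1.13 to 4.35, with a median of 1.75.

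Gata2, a zinc-finger factor that acts in the development of serotonergic and GABAergic neurons, had a lowest, median and highest level of 21.0, 25.5 and 35.2 CPM in mDA mutants, against 0.258, 2.30 and 4.35 CPM in mDA wt. The 4 5HT mutants had 36.1, 49.2, 46.2 and 27.7 CPM, against 89.2, 72.9, 59.6 and 64.0 CPM in 5HT wt. All mDA mutants lay above all mDA wt libraries and all 5HT mutants below all 5HT wt libraries, and the mutants of both types overlapped in level. The mDA effect was 3.45 ± 0.34 (log2, SE, adjusted p = 2.92e-08), the 5HT effect -0.80 ± 0.36 (adjusted p = 0.462) and the interaction 4.25 (95% interval 3.21 to 5.29, adjusted p = 8.32e-06, edgeR). Without D161, D170 and D176, the libraries with high vascular markers, the interaction of Gata2 was 4.33 with an adjusted p of 0.000128.

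The list of 10 serotonergic factors held 4 genes higher in mDA mutants and none called higher in 5HT mutants, against 1.81% and 1.01% of all tested genes. Another member, En1, was lower in mDA mutants, and the median effect over the list was -0.26 in mDA and -0.14 in 5HT neurons (log2). Besides Gata2 the higher ones were Gata3, at 20.1 CPM in mDA mutants against 5.07 CPM in mDA wt, Nkx2-2, a homeobox factor of serotonergic progenitors, at 5.66 against 0.839 CPM, and Fev, the serotonergic identity factor also known as Pet1, at 5.82 against 0.826 CPM. The interaction of Gata3, Nkx2-2 and Fev was 1.88, 2.94 and 3.68 but did not pass the test (adjusted p = 0.356, 0.608 and 0.240). Fev lay highest in D161, at 17.1 CPM, and without D161, D170 and D176 its mDA effect was 1.60 (log2, adjusted p = 0.370) and no longer called. Their level in mDA mutants stayed below that in 5HT wt, where Gata3 averaged 149 CPM and Fev 23.2 CPM, except for Nkx2-2, which averaged 2.06 CPM there. The transmitter genes of 5HT neurons were not called in mDA neurons: Tph2 averaged 5.88 ± 3.63 CPM in mDA mutants and 5.96 ± 9.06 CPM in mDA wt, and the serotonin transporter Slc6a4 1.86 ± 1.45 and 1.95 ± 1.23 CPM (SD, n = 8 each).

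Stxbp2, a Munc18 protein that regulates vesicle fusion, rose in both types but more in mDA neurons. It had 139, 198 and 273 CPM (lowest, median, highest) in mDA mutants, against 20.9, 33.0 and 45.5 CPM in mDA wt, and 286, 204, 292 and 292 CPM in the 5HT mutants, against 157, 166, 120 and 196 CPM in 5HT wt. The groups did not overlap in either type. The effects were 2.68 ± 0.15 in mDA and 0.76 ± 0.18 in 5HT neurons (log2, SE), and the interaction was 1.92 (95% interval 1.44 to 2.40, adjusted p = 9.18e-06). The 5HT call of Stxbp2 was lost without S381, S383, S442, S446 or S447, with no set term and with all 51 libraries (adjusted p up to 0.112).

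Of the 5 genes listed as markers of GABA and glycine transmission, 3 rose in both types, against 0.67% of all tested genes. Of these, 2 had a positive interaction call, and the median interaction over the list was -0.02 (log2). Gad1, which makes GABA, had 215, 285 and 388 CPM in mDA mutants, against 24.6, 36.2 and 79.3 CPM in mDA wt. In 5HT mutants it had 218, 296.2, 175.7 and 197 CPM, against 108, 88.6, 109 and 75.02 CPM in 5HT wt. Its level in mutants overlapped between the neuron types. The interaction of Gad1 was 1.40 (95% interval 0.83 to 1.96, adjusted p = 0.0163). Its call was lost without C42, S446 or S447 (1.33, 1.22 and 1.30, adjusted p = 0.0540, 0.0985 and 0.0940). Slc6a5, the neuronal glycine transporter, averaged 93.6 ± 35.2 CPM in mDA mutants against 1.18 ± 1.13 CPM in mDA wt, and 122 ± 19.4 CPM in 5HT mutants against 20.4 ± 22.4 CPM in 5HT wt (SD, n = 8, 8, 4 and 4). Its interaction of 3.16 (adjusted p = 0.0489) was called in 2 of the 24 fits that left out 1 library, and not without D161, D170 and D176 (2.90, adjusted p = 0.185). Slc32a1, the vesicular GABA and glycine transporter, rose by 1.65 in mDA and by 2.07 in 5HT neurons (log2, adjusted p = 5.74e-05 and 9.02e-05), with an interaction of -0.42 (95% interval -1.25 to 0.41). Gad2, a second GABA-synthesising enzyme, was called in neither type. It averaged 173 CPM in mDA mutants against 118 CPM in mDA wt, and 137 CPM in 5HT mutants against 92.2 CPM in 5HT wt. Whether the sorted cells or other cells in the sort carried these transcripts was not tested.

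Chgb, the granule protein chromogranin B, was higher in mDA mutants and lower in 5HT mutants. It had 123, 192.2 and 200 CPM in mDA mutants, against 79.6, 111 and 145 CPM in mDA wt, and 337, 472, 368.6 and 537 CPM in 5HT mutants, against 740, 703, 818 and 733 CPM in 5HT wt. The mDA groups overlapped and the 5HT groups did not. The mDA effect was 0.65 ± 0.15 and the 5HT effect -0.79 ± 0.19 (log2, SE, adjusted p = 0.0111 and 0.0203), with an interaction of 1.44 (95% interval 0.94 to 1.94, adjusted p = 0.00299). The mDA call of Chgb was lost by voom, with set2 alone and without C45 or C42 (adjusted p up to 0.636), and its 5HT call without S383, S385, S442 or S446 and with all 51 libraries (up to 0.131). The interaction call was lost with set2 alone (1.11, adjusted p = 0.145).

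Among the remaining positive genes, Nr3c1, the glucocorticoid receptor, averaged 51.5 ± 19.7 CPM in mDA mutants against 25.6 ± 3.68 CPM in mDA wt, and 143 ± 12.5 CPM in 5HT mutants against 174.7 ± 3.87 CPM in 5HT wt (interaction 1.36, adjusted p = 0.0320, called in 14 of 24 fits without 1 library). Lcorl, whose locus encodes a PRC2 accessory protein, and Pea15a, an adaptor with a death effector domain, fell in 5HT mutants alone. Lcorl averaged 34.4 ± 8.45 CPM in 5HT mutants against 94.2 ± 13.2 CPM in 5HT wt, and 22.7 ± 12.6 CPM in mDA mutants against 19.5 ± 5.79 CPM in mDA wt, with an interaction of 2.13 (adjusted p = 0.0406) called in 9 of 24 such fits. Pea15a averaged 332 ± 96.0 CPM in 5HT mutants against 620 ± 88.8 CPM in 5HT wt, with an interaction of 1.13 (adjusted p = 0.0454) called in 8 of 24. Without D161, D170 and D176 the interaction of Nr3c1, Lcorl and Pea15a was 1.05, 1.59 and 1.12 and none was called (adjusted p = 0.139, 0.181 and 0.229). Pltp, a phospholipid transfer protein, had the largest positive estimate, 4.35 (adjusted p = 0.00604). It reached 129.5, 64.5 and 91.5 CPM in D161, D170 and D176, against 1.69 to 5.96 CPM in the other 5 mDA mutants and up to 3.50 CPM in mDA wt. Without those 3 libraries its interaction was 2.64 with an adjusted p of 0.514. The summed endothelial markers were highest in the same 3 libraries, and their part in the result was not tested.

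**Figure D2:**
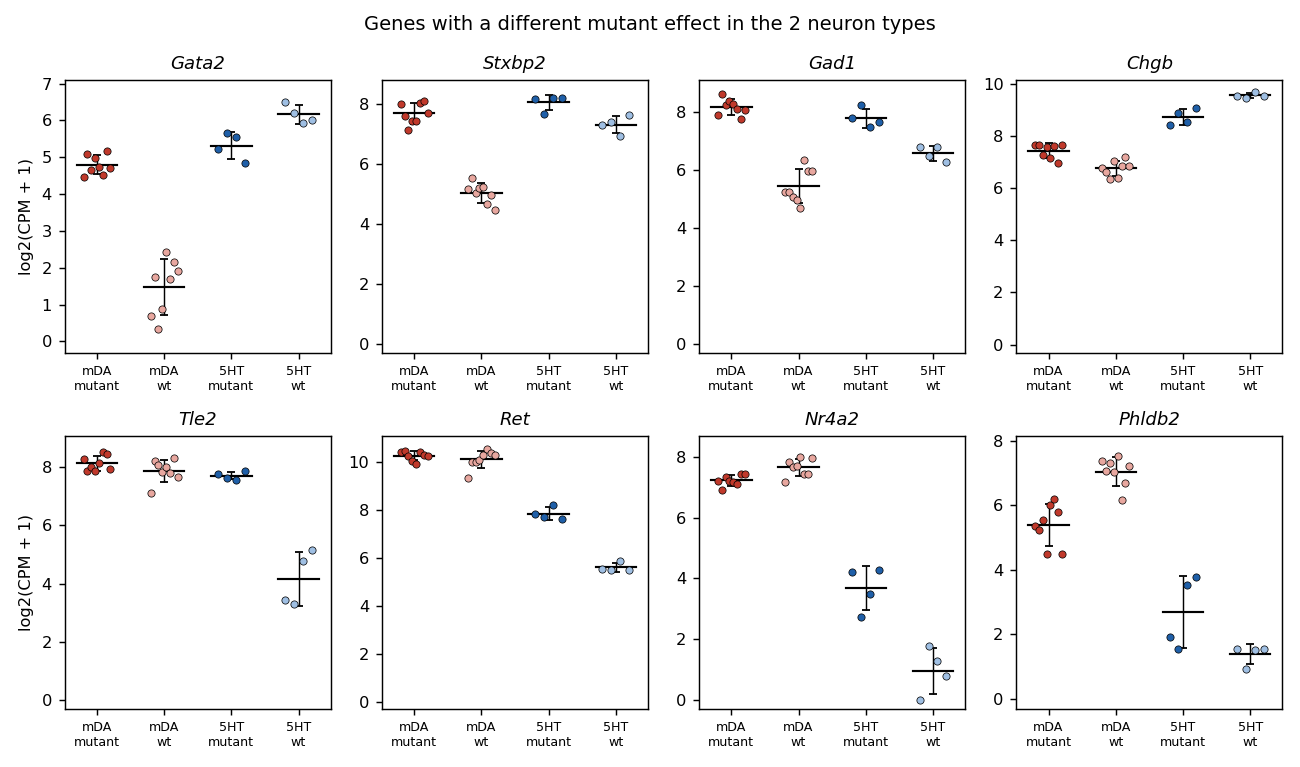
Level of 8 interaction genes in each library as log2(CPM + 1), with mutants left of wt for each neuron type. Bars mark the group mean and SD (n = 8, 8, 4 and 4). Gata2, Stxbp2 and Gad1 differ most between mDA mutant and mDA wt, and Tle2, Ret and Nr4a2 between 5HT mutant and 5HT wt.

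The genes raised in 5HT neurons alone included Nr4a2 and Ret, which dopaminergic neurons use, and Tle2. Of the 22 single-copy negative genes, 10 rose in 5HT mutants and were not called in mDA neurons, 9 fell in mDA mutants and were not called in 5HT neurons, and 3 fell in mDA and rose in 5HT mutants. The 5HT effect of the first 10 ranged over 1.29 to 4.76 on the log2 scale, with a median of 2.37, while their mDA effect ranged over -0.99 to 0.42.

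Tle2, a Groucho corepressor, had the smallest p. It had 217, 198, 189 and 229 CPM in 5HT mutants, against 9.75, 8.93, 26.6 and 34.3 CPM in 5HT wt. In mDA mutants it had 232, 268 and 362 CPM (lowest, median, highest), against 138, 239 and 314 CPM in mDA wt. All 5HT mutants lay above all 5HT wt libraries, within the range of mDA wt, while the mDA groups overlapped. The 5HT effect was 3.36 ± 0.27 and the mDA effect 0.18 ± 0.20 (log2, SE), and the interaction was -3.18 (95% interval -3.85 to -2.50, adjusted p = 8.02e-07).

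Ret, the receptor tyrosine kinase for GDNF family ligands (chr6:118151748-118197744), had 225, 204, 293 and 193 CPM in 5HT mutants, against 45.2, 43.7, 57.2 and 43.4 CPM in 5HT wt. In mDA mutants it had 962, 1236 and 1389 CPM, against 644, 1152 and 1461 CPM in mDA wt. The 5HT groups did not overlap, and the mutants stayed below every mDA library. The 5HT effect was 2.28 ± 0.19 and the mDA effect 0.03 ± 0.14 (log2, SE), with an interaction of -2.25 (95% interval -2.73 to -1.77, adjusted p = 8.02e-07).

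Nr4a2, the nuclear receptor Nurr1 that dopaminergic neurons need to form and persist, had 17.4, 5.67, 10.2 and 18.5 CPM in 5HT mutants, against 0, 2.37, 1.41 and 0.703 CPM in 5HT wt. In mDA mutants it had 119, 147.1 and 171 CPM, against 144, 206 and 254 CPM in mDA wt. The 5HT groups did not overlap, but the 5HT wt libraries held only 26 counts in all. The 5HT effect was 3.50 ± 0.40 and the mDA effect -0.48 ± 0.21 (log2, SE, adjusted p = 6.18e-07 and 0.336), with an interaction of -3.97 (95% interval -4.91 to -3.03, adjusted p = 5.31e-06). The interaction of Gata2, Stxbp2, Tle2, Ret and Nr4a2 was called under all 35 alternatives run, and these were the only 5 of the 39 genes for which that held.

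Of the 12 dopaminergic factors listed, 3 had a negative interaction call and none a positive one, against 0.166% and 0.101% of all tested genes. Besides Nr4a2 these were En1, a homeobox factor that maintains dopaminergic neurons and is also on the serotonergic list, and Ebf3, a factor of neuronal differentiation. En1 averaged 41.5 ± 9.71 CPM in mDA mutants against 119 ± 22.4 CPM in mDA wt, and 19.8 ± 1.96 CPM in 5HT mutants against 21.3 ± 2.62 CPM in 5HT wt (SD, n = 8, 8, 4 and 4). Its interaction was -1.51 (95% interval -2.10 to -0.91, adjusted p = 0.0134), and without S385 it was -1.50 with an adjusted p of 0.0507. Ebf3 fell in mDA by 0.96 and rose in 5HT neurons by 1.40 (log2, adjusted p = 0.0445 and 0.0487), with an interaction of -2.36 (adjusted p = 0.0163). Under the 35 alternatives the mDA call of Ebf3 was lost in 20 and its 5HT call in 26, so neither effect was called under most of them. Its interaction call was lost without S385 or S446 (-2.20 and -1.902, adjusted p = 0.0762 and 0.1425), and without D161, D170 and D176 the calls of En1 and Ebf3 were lost (-1.40 and -2.41, adjusted p = 0.0775 and 0.0629). Foxa2 and Otx2 had estimates of -2.35 and -3.42 that did not pass the test (adjusted p = 0.338 and 0.400). Another listed factor, Sox6, went the other way. It fell in 5HT mutants, at 0.295 CPM against 2.83 CPM in 5HT wt (log2 -3.13, adjusted p = 0.0412). The interaction of Sox6 was 2.57 (adjusted p = 0.420). Over the 12 factors 4 interaction estimates were above 0 and 8 below. The dopamine genes Th and Slc6a3 were not called in 5HT neurons. Th had 23.8, 18.1, 8.82 and 27.5 CPM in 5HT mutants, against 14.2, 36.1, 17.5 and 16.2 CPM in 5HT wt, and the dopamine transporter Slc6a3 had 26.1, 5.84, 7.98 and 7.15 CPM against 28.4, 32.6, 16.1 and 7.38 CPM.

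Further genes of this class were Mkx, a homeobox factor, at 24.5 ± 8.56 CPM in 5HT mutants against 2.69 ± 1.41 CPM in 5HT wt and at 46.5 ± 15.2 CPM in mDA mutants against 39.9 ± 10.7 CPM in mDA wt (interaction -2.73, adjusted p = 0.00299). The interaction call of Mkx was lost by limma voom (-2.89, adjusted p = 0.131) and with set2 alone (-3.01, adjusted p = 0.0654, edgeR). Cacna1g, a T-type calcium channel subunit, averaged 69.3 ± 25.2 CPM in 5HT mutants against 25.9 ± 7.67 CPM in 5HT wt, and 279 ± 69.9 CPM in mDA mutants against 326 ± 85.9 CPM in mDA wt. Its interaction of -1.29 (adjusted p = 0.0366) was called in 14 of the 24 fits without 1 library, and not without D161, D170 and D176 (-1.38, adjusted p = 0.0755).

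The second group of negative genes fell in mDA neurons. Rreb1, a zinc-finger factor, had 391, 539 and 723 CPM in mDA mutants, against 946, 1427 and 1661 CPM in mDA wt, and 58.7, 40.2, 42.9 and 22.7 CPM in 5HT mutants, against 24.2, 20.6, 31.1 and 25.5 CPM in 5HT wt. The mDA groups did not overlap and the 5HT groups did. Its interaction was -1.79 (95% interval -2.33 to -1.26, adjusted p = 0.000302). Fam184a, which encodes a coiled-coil protein, averaged 110 ± 33.4 CPM in mDA mutants against 294.4 ± 86.7 CPM in mDA wt, and 95.05 ± 19.3 CPM in 5HT mutants against 104 ± 12.8 CPM in 5HT wt (interaction -1.18, adjusted p = 0.00700). Anxa1, a calcium-binding annexin that marks part of the substantia nigra neurons, averaged 5.95 ± 5.69 CPM in mDA mutants against 28.0 ± 9.97 CPM in mDA wt, and was near the floor in 5HT neurons, at 1.78 ± 1.16 CPM in mutants against 0.533 ± 0.211 CPM in wt. Its interaction of -4.99 (95% interval -7.10 to -2.87, adjusted p = 0.0291) was called in 18 of 24 such fits. Lama5, a laminin chain, and Cplx1, the vesicle fusion regulator complexin 1, fell in mDA by 1.06 and 1.16 (log2) with interactions of -1.87 and -1.18 (adjusted p = 0.0134 and 0.0489). The Lama5 call was lost without S446 (-1.48, adjusted p = 0.121) and without D161, D170 and D176 (-1.89, adjusted p = 0.0504), and the Cplx1 call held in 5 of 24 such fits and not without D161, D170 and D176 (-1.097, adjusted p = 0.298).

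Malat1 and Phldb2 fell in mDA and rose in 5HT mutants in the fit of all 24 libraries. Malat1, an abundant nuclear long non-coding RNA, averaged 36614 ± 9078 CPM in mDA mutants against 51352 ± 11128 CPM in mDA wt, and 50410 ± 2717 CPM in 5HT mutants against 36861 ± 2403 CPM in 5HT wt. The mDA groups overlapped and the 5HT groups did not, and the interaction was -0.86 (95% interval -1.11 to -0.60, adjusted p = 0.000299). The 5HT call of Malat1 was lost with no set term and with all 51 libraries (adjusted p up to 0.366). Its mDA call was lost with all 51 libraries and with set2 alone (up to 0.210), and its interaction call with all 51 libraries (-0.91, adjusted p = 0.169). Phldb2, a protein of the cell cortex that holds microtubule ends, averaged 44.5 ± 18.4 CPM in mDA mutants against 136 ± 36.1 CPM in mDA wt. Its 5HT libraries had 2.78, 1.95, 10.5 and 12.7 CPM in mutants, against 1.91, 0.911, 1.88 and 1.93 CPM in wt (interaction -3.56, adjusted p = 0.00299). The 5HT call of Phldb2 was lost in 10 of the 35 alternatives, among them the fits without S381, S382, S383, S385, S446 or S447.

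Read against wt neurons in libraries that the interaction did not use, the interaction genes were ordered by neuron type. In the 13 wt libraries of 4 months (9 mDA and 4 5HT), all 17 positive genes were higher in wt 5HT than in wt mDA, 10 of them called. Of the 22 single-copy negative genes, 21 were higher in wt mDA, 18 of them called, and the exception was Malat1. Over the 14356 genes that both fits tested, 7147 were higher in wt mDA, with 901 called, and 7209 were higher in wt 5HT, with 689 called. The median wt difference was -1.94 for the positive and 2.93 for the negative genes (log2, mDA over 5HT).

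**Figure D3:**
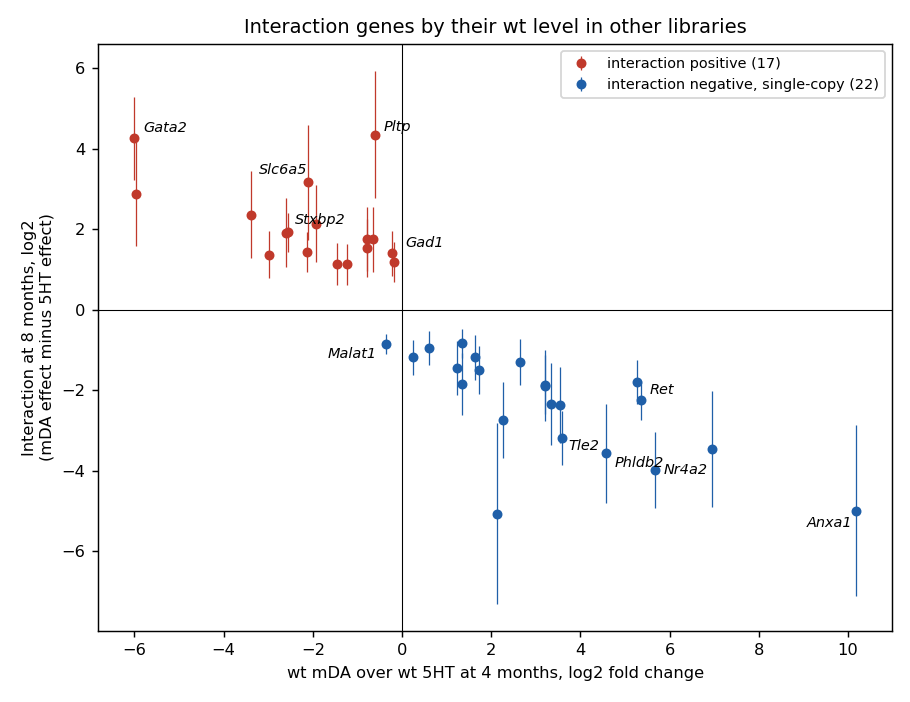
Interaction at 8 months with its 95% interval (vertical, log2) against the difference of wt mDA over wt 5HT at 4 months (horizontal, log2 fold change) for the 39 single-copy genes. The 17 positive genes lie to the left of 0 and 21 of the 22 negative genes to the right.

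Conversely, 306 genes were higher in wt mDA and 117 in wt 5HT at 4 months at an adjusted p under 0.01 and an absolute log2 fold change over 2. The wt mDA genes had 13 negative and no positive interaction calls and a median interaction of -0.70, where the median of all tested genes was 0.02. In mDA mutants 26 of them fell and 4 rose, and in 5HT mutants 2 fell and 19 rose. The wt 5HT genes had 7 positive and no negative interaction calls and a median of 0.86. In mDA mutants 17 of them rose and 1 fell, and in 5HT mutants 1 rose and 6 fell. Thus 14.5% of the wt 5HT genes rose in mDA mutants, against 1.81% of all tested genes, and 6.21% of the wt mDA genes rose in 5HT mutants, against 1.01%. Genes picked for a wt difference are low in the other type, where they can mostly rise, and high in their own, where a fall is easier to detect. All tested genes are therefore not a like baseline for these counts. The 4-month mutants gave few calls of their own: the interaction there was called for 2 genes in each direction (0.0121% each of 16508 tested). Of the 39 genes, none was called at 4 months by edgeR. An unadjusted p under 0.05 was found for 3 positive and 7 negative ones, each with the sign it had at 8 months. Of the 15733 single-copy genes tested at both months, 1215 had such a p at 4 months, 645 of them with their 8-month sign. By sign alone, 11 of the 17 positive genes were positive at 4 months and 6 negative, with a median of 0.12 (log2). Of the 22 negative genes 13 were negative there and 9 positive, with a median of -0.19. Over the 15733 genes 7492 were positive and 8241 negative at 4 months, with a median of -0.03. Sex is tied to genotype in the 4-month mDA libraries of set1 and set3.

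Many of the shared changes were HOX genes and other developmental factors that rose in both types. Both neuron types called 113 genes higher (0.67%), which was 37.0% of the genes higher in mDA and 66.5% of those higher in 5HT neurons, and 9 genes lower (0.0533%), 6.38% and 20.9% of the lower genes. The median effect of the 113 was 4.63 in mDA and 5.16 in 5HT neurons (log2), or 4.90 in 5HT neurons with the 14 genes that had no 5HT wt counts set to the floor. Including these genes, 84.3% of the genes higher in mDA mutants had a positive 5HT effect and 90% of those higher in 5HT mutants a positive mDA effect, where 50.4% and 51.1% of all tested genes did. Genes nearly silent in wt pass the filter on low counts only through the mutants, so their sign was nearly fixed in advance. The shares over all tested genes are therefore not a like baseline. Of the genes lower in mDA mutants 58.9% had a negative 5HT effect, and of those lower in 5HT mutants 86% a negative mDA effect.

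HOX genes give the body axis its positional code. Of the 39 listed, 33 passed the filter on low counts, 27 were higher in mDA and 21 in 5HT mutants, 20 in both, against 1.81%, 1.01% and 0.67% of all tested genes. Genes nearly silent in wt pass this filter only through the mutants, so a rise was nearly the only change they could show. The list was also chosen with earlier results of these data known. Their median effect was 5.62 in mDA and 5.64 in 5HT neurons (log2), or 5.14 in 5HT with the 9 tested genes that had no counts in 5HT wt set to the floor of 3 counts over that group. None had an interaction call by edgeR, DESeq2 or limma voom, and 5 had an unadjusted p under 0.05 in edgeR. Over all tested genes 0.101% had a positive and 0.166% a negative call, so few calls can fall in a list this short. An unadjusted p under 0.05 was found for 1278 of all 16873 tested genes. Hoxd11, a posterior HOX gene, had 22.2, 37.8 and 53.6 CPM in mDA mutants, against 0, 0.0854 and 0.211 CPM in mDA wt. In 5HT mutants it had 55.4, 31.0, 70.4 and 66.0 CPM, against 0.212, 0.364, 0 and 0 CPM in 5HT wt, which held 3 counts in all, a ratio of 418 by counting (95% interval 143 to 2030). The mutants of both types overlapped in level and lay far above every wt library, and the difference of the effects was -0.94 (95% interval -2.94 to 1.06). Hoxc8 averaged 53.4 ± 23.2 CPM in mDA mutants against 0.444 ± 0.508 CPM in mDA wt, and 35.1 ± 10.8 CPM in 5HT mutants against 0.933 ± 1.18 CPM in 5HT wt. Hoxd4 averaged 39.5 ± 23.5 against 0.429 ± 0.483 CPM in mDA and 31.7 ± 8.54 against 0.673 ± 0.513 CPM in 5HT neurons, mutant against wt.

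Of 163 other developmental factors listed, 133 were tested, 65 were higher in mDA and 53 in 5HT mutants, 47 in both, against 1.81%, 1.01% and 0.67% of all tested genes, and none was lower in either. The limits given for the HOX genes, from the filter and from the choice of the list, hold here too. By edgeR none had an interaction call, with 19 at an unadjusted p under 0.05, against 1 call by DESeq2 and none by limma voom. Over all 16873 tested genes edgeR called 0.101% positive and 0.166% negative, and 1278 had an unadjusted p under 0.05. Pax6, a paired-box factor of eye and forebrain, had 56.6, 83.4 and 115 CPM in mDA mutants, against 3.25, 5.86 and 14.4 CPM in mDA wt, and 36.5, 32.4, 43.8 and 66.4 CPM in 5HT mutants, against 0.636, 4.56, 4.69 and 0.527 CPM in 5HT wt. Neither pair of groups overlapped, and the difference of the effects was -0.45 (95% interval -1.55 to 0.64). Vax2os, the antisense transcript of the eye factor Vax2, averaged 200 ± 117 CPM in mDA mutants against 1.39 ± 1.43 CPM in mDA wt, and 393 ± 103 CPM in 5HT mutants against 1.34 ± 0.582 CPM in 5HT wt. Fendrr, a non-coding RNA next to Foxf1, averaged 49.5 ± 16.3 CPM in mDA mutants against 1.74 ± 2.17 CPM in mDA wt, and 68.8 ± 15.5 CPM in 5HT mutants against 0.218 ± 0.174 CPM in 5HT wt. Onecut2 and Shox2, homeobox factors, rose by 2.74 and 2.699 in mDA and by 3.59 and 2.58 in 5HT neurons (log2), with differences of -0.85 (95% interval -1.69 to 0.00) and 0.12 (-1.11 to 1.35). Pitx1, a homeobox factor of hindlimb and pituitary, rose by 6.07 in mDA neurons, and with 3 counts in 5HT wt its ratio in 5HT neurons was 130 by counting (95% interval 44 to 631). No source used here gives how strand was counted, so reads of Vax2os and Fendrr cannot be told apart from those of overlapping genes.

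The cell cycle inhibitors Cdkn2a and Cdkn2b, long-known PRC2 targets, were at low levels and were called higher in both types. Cdkn2b had 4.60, 11.4 and 21.2 CPM in mDA mutants, against 0, 0.439 and 1.55 CPM in mDA wt, and 14.9, 14.9, 11.8 and 12.6 CPM in 5HT mutants, against 0, 0, 0.313 and 0 CPM in 5HT wt. Cdkn2a averaged 3.05 ± 2.16 CPM in mDA mutants against 0.162 ± 0.230 CPM in mDA wt, and 5.63 ± 1.80 CPM in 5HT mutants against 0.0911 ± 0.182 CPM in 5HT wt. The mDA call of Cdkn2a was lost in 4 of the 35 alternatives, among them the fits without C45 or D161 (adjusted p up to 0.449), and its 5HT call in 7, among them those without S381, S383, S385, S442, S446 or S447 (up to 0.123), while both calls of Cdkn2b held in all 35. Each had 2 counts in 5HT wt, which gave 5HT ratios by counting of 150 for Cdkn2b (95% interval 41.3 to 1250) and 62.2 for Cdkn2a (16.9 to 519). The fitted differences of the effects were -1.57 for Cdkn2b (95% interval -4.22 to 1.08) and -1.21 for Cdkn2a (-4.88 to 2.45), and such intervals by counting cover counting error only.

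**Figure D4:**
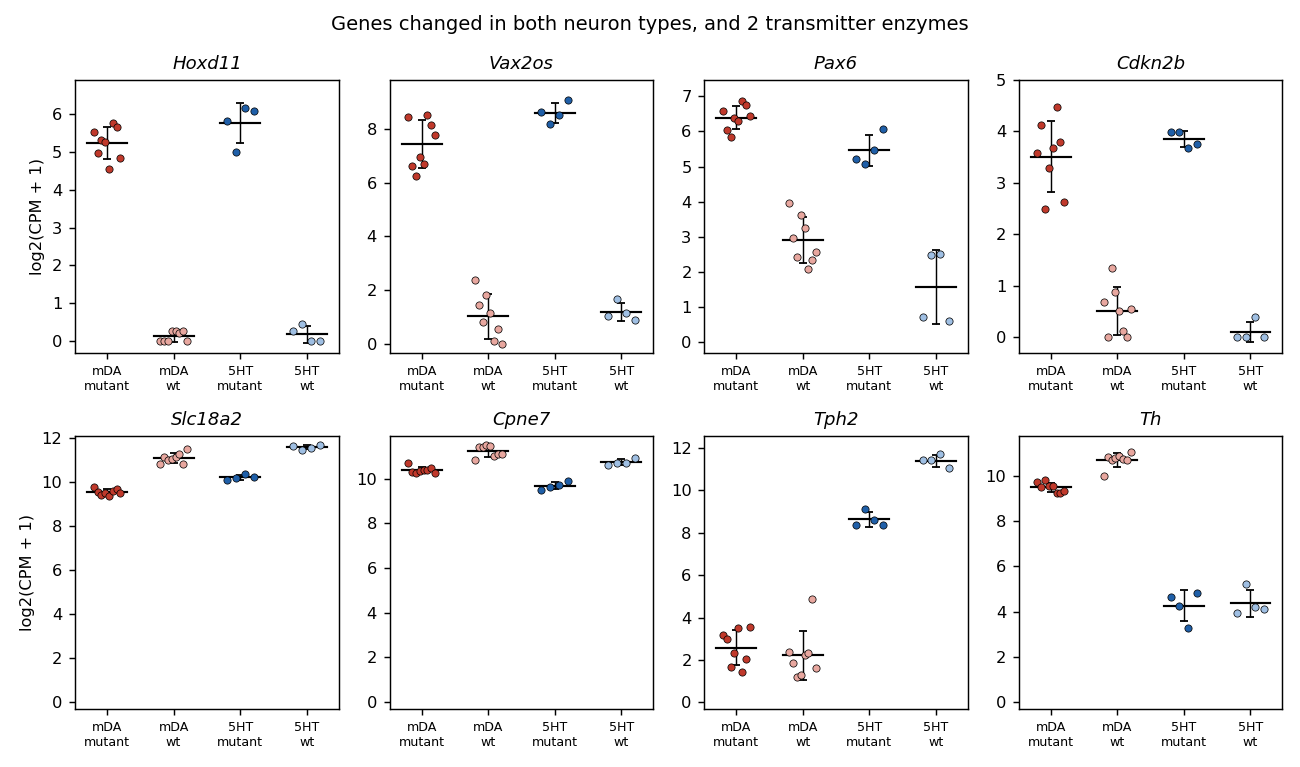
Level in each library as log2(CPM + 1) of 6 genes called in the same direction in both neuron types, and of the transmitter enzymes Tph2 and Th, with mutants left of wt. Bars mark the group mean and SD (n = 8, 8, 4 and 4). Hoxd11, Vax2os, Pax6 and Cdkn2b are higher, and Slc18a2 and Cpne7 lower, in the mutants of both types.

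Equal effects were not shown for most of the shared genes. Of the 113 higher in both, 3 had an interaction call (Stxbp2, Gad1 and Slc6a5) and 19 an unadjusted p under 0.05, and 35 had the larger estimate in mDA and 78 in 5HT neurons. In 5HT wt 14 of them had no counts and 23 had 1 to 3, so these estimates depend on few reads. The 95% interval of the difference lay within 1 log2 unit on both sides for 6 of the 113, against 27.1% of all tested genes, and its median half-width was 2.27 against 1.09.

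The 9 genes lower in both types were measured more tightly. Slc18a2, the vesicular monoamine transporter, had 660, 731 and 870 CPM in mDA mutants, against 1773, 2158 and 2860 CPM in mDA wt, and 1086, 1164, 1290 and 1198 CPM in 5HT mutants, against 3149, 2803, 2993 and 3255 CPM in 5HT wt. The groups did not overlap in either type. The effects were -1.50 ± 0.10 in mDA and -1.36 ± 0.13 in 5HT neurons (log2, SE, adjusted p = 1.09e-11 and 3.69e-08), and their difference was -0.14 (95% interval -0.49 to 0.21). Cpne7, a calcium-dependent copine, differed by 0.20 (95% interval -0.12 to 0.53), Pdzd8, a lipid transfer protein of endoplasmic reticulum contacts, by 0.05 (-0.44 to 0.54), and Nwd2 by -0.02 (-0.67 to 0.63). For 5 of the 9 genes the interval lay within 1 log2 unit on both sides. None of the 9 had an interaction call by edgeR, DESeq2 or limma voom. By edgeR 0.101% of all tested genes had a positive and 0.166% a negative one. Of the 9 genes, 2 had an unadjusted p under 0.05 in edgeR. Grip2, a scaffold of glutamate receptors, differed by -0.60 (95% interval -1.05 to -0.15) and Ddc by 0.63 (0.22 to 1.05). The mDA call of Ddc was lost in 22 of the 35 alternatives and the 5HT calls of Pdzd8 and Grip2 in 3 and 4.

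**Figure D5:**
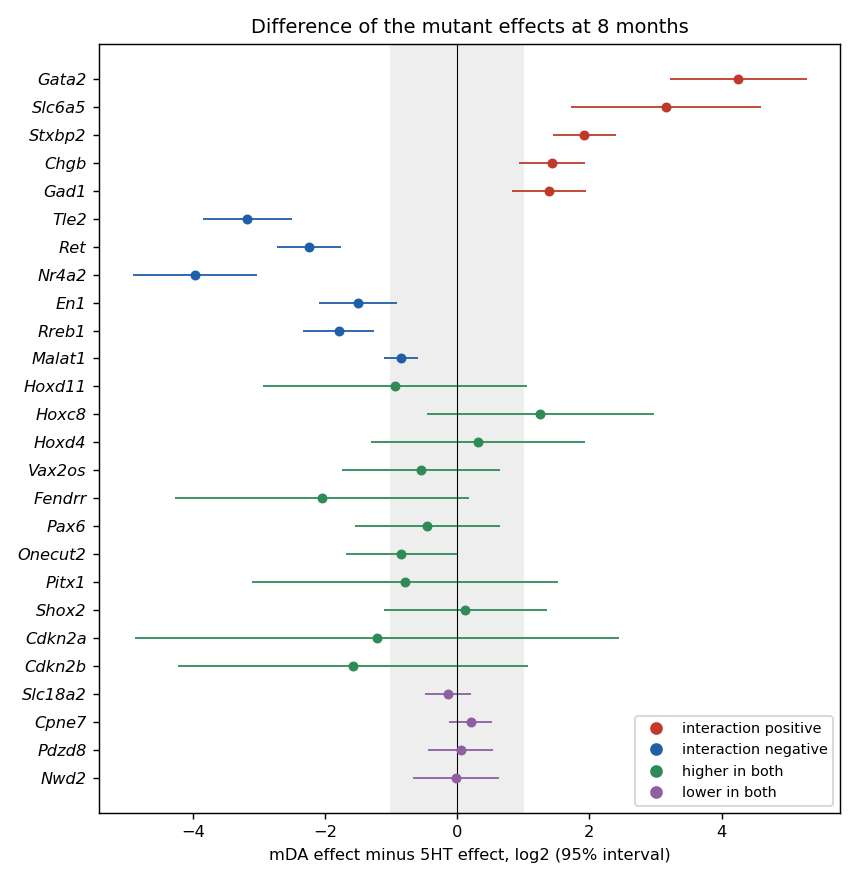
Difference of the mutant effects (mDA minus 5HT, log2) with its 95% interval for 26 genes, grouped by class. The grey band marks differences within 1 log2 unit. Intervals of the 4 genes lower in both that are shown lie inside the band, those of most genes higher in both reach beyond it, and those of the positive and negative interaction genes lie to the right and to the left of 0.

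Th and Slc6a3 fell in mDA mutants, and Tph2 and Slc6a4 fell in 5HT mutants. Th averaged 732 ± 109 CPM in mDA mutants against 1724 ± 331 CPM in mDA wt, an effect of -1.25 (log2, adjusted p = 0.000148), and Slc6a3 1128 ± 223 against 2874 ± 443.4 CPM, an effect of -1.41 (adjusted p = 0.00929), which was -1.48 and no longer called without D161, D170 and D176 (adjusted p = 0.0566). Tph2 had 331, 567, 395 and 333 CPM in 5HT mutants, against 2744, 2786, 3421 and 2117 CPM in 5HT wt, an effect of -2.77 (adjusted p = 0.0305). The 5HT groups of Tph2 did not overlap, but its call was lost in 8 of the 35 alternatives, among them the fits without S381, S382, S383, S385, S442, S446 or S447 (adjusted p up to 0.148). Slc6a4 averaged 554 ± 43.4 CPM in 5HT mutants against 2708 ± 106 CPM in 5HT wt, an effect of -2.25 (adjusted p = 0.00242). The Cre drivers are named for the dopamine and serotonin transporters, and the labels do not say whether wt animals carry Cre. An effect of the driver on Slc6a3 or Slc6a4 therefore cannot be told apart from the loss of PRC2 function. Neuron type and driver strain also go together in all libraries. The interaction was -1.12 for Th, -0.53 for Slc6a3, 2.49 for Tph2 and 1.77 for Slc6a4 (adjusted p = 0.313, 0.913, 0.422 and 0.477), with 95% intervals of -1.84 to -0.40, -1.69 to 0.63, 0.65 to 4.32 and 0.39 to 3.14. An interaction call appeared for Slc6a4 without D161, D170 and D176 (1.98, adjusted p = 0.0326) and with the mDA libraries of set1 alone (2.29, adjusted p = 0.000377), for Tph2 with set1 alone (4.15, adjusted p = 0.00423) and without D147, and for Th without S382 (-1.48, adjusted p = 0.0375). Of the 16 genes listed for dopamine synthesis and handling, 6 fell in mDA and 2 in 5HT mutants, and of the 12 listed for serotonin 3 fell in mDA and 4 in 5HT mutants, against 0.836% and 0.255% of all tested genes. The lists share members. The 3 serotonin genes that fell in mDA mutants were Ddc, Slc18a2 and Gch1, all on both lists. The 2 dopamine genes that fell in 5HT mutants were Ddc and Slc18a2. By edgeR neither list had an interaction call, with 4 and 5 members at an unadjusted p under 0.05, and DESeq2 called 1 and 0. Of all 16873 tested genes edgeR called 0.101% positive and 0.166% negative, with 1278 at an unadjusted p under 0.05.

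The interaction count depended on single libraries more than the shared count. Leaving out 1 library at a time gave 20 to 44 interaction calls. It fell by over 1.5 times without C45 (25 calls), C47 (27), C51 (29), C42 (23), S381 (22), S383 (20), S385 (28), S442 (25), S446 (23) or S447 (23). The sign of all 45 calls was the same in every one of the 35 alternatives, and 12 of the 39 single-copy genes were called in all 24 fits without 1 library.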

How the data were processed

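RNA was measured in sorted neurons with Smart-seq2, per the labels' protocols. The authors deposited raw read counts per gene. STAR 2.7.0a and the mm10 (GRCm38) build are named in the submitters' processing notes, while the counter and its strand setting were not given in the sources used here. From the counts, edgeR 4.0.16 (R 4.3.3) was fitted once to the 24 libraries of 8 months, with TMM scaling, filterByExpr (minimum count 10), robust quasi-likelihood, terms for the labelled mDA set and for sex, and Benjamini-Hochberg adjustment over the 16873 of 24564 genes kept. Every adjusted p in the text comes from edgeR unless another tool is named. With 17 residual degrees of freedom, p-values measure the spread between labelled biological replicates. All 8 5HT libraries are labelled set1, as are 8 of the mDA libraries, and the set terms applied to mDA libraries of set2 and set3. Set3 held 2 mDA wt libraries (D833 and C250) and 0 mDA mutants, so its term took up their level. The mDA effect and the interaction thus rest on 4 mDA wt libraries of set1 and 2 of set2. Means in CPM are over all 8. Without the set3 libraries the interaction was called for 42 genes. A reporter row was left out (0.00294% or less of each library).

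Totals per library were 4312167 to 11896342 in mDA mutants. Over all 24 libraries they ranged from 1644460 to 12250492. No pair of libraries held identical values, and replicates differed by more than sampling noise (lowest chi-square per degree of freedom 8.42). Libraries of 4 months (27, of which 13 wt) were fitted separately. Alternatives used RLE scaling, no filter, DESeq2 1.42.0, limma 3.58.1 (voom), other model terms, other library sets and leaving out each library. On simulated counts with known changes (16242 genes) edgeR made 60 interaction calls with 0 false ones, and found 11% of 2-fold and 49% of 4-fold differences. These counts were drawn with edgeR's own fitted dispersions and without effects of set, sex or single libraries. The simulation therefore cannot give the share of false calls in the real data. Genes named in the text are Eed, the called genes with the smallest p or largest interaction in each direction, shared genes with the smallest p, up to 4 called members per list and a set of identity genes. Gata3, Nkx2-2, Foxa2, Otx2 and Gad2 were named after their values were seen. The members and gene lists were chosen with earlier results of these data known. RefSeq symbols matched 91.4% of the genes.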

Additional observations from a re-analysis of the deposited data

Results flagged for a closer look

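A difference between the mutant effects in mDA and 5HT neurons passed edgeR's test for these genes, given as mDA minus 5HT on the log2 scale. The positive ones were Gata2 (4.25), Stxbp2 (1.92), Chgb (1.44), Pltp (4.35), Gad1 (1.40), Slc6a5 (3.16), Nr3c1 (1.36), Lcorl (2.13) and Pea15a (1.13). The negative ones were Tle2 (-3.18), Ret (-2.25), Nr4a2 (-3.97), Malat1 (-0.86), Rreb1 (-1.79), Mkx (-2.73), Phldb2 (-3.56), Fam184a (-1.18), Lama5 (-1.87), En1 (-1.51), Ebf3 (-2.36), Anxa1 (-4.99), Cacna1g (-1.29) and Cplx1 (-1.18).

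In 16 of 188 groups of libraries examined, over 47 genes, 1 library lay far from the others of its group. For normally distributed values chance alone gives about 1 of 20 groups, a rate that does not hold at low counts. Where the other libraries are all 0, the remaining one is always flagged, as for Cdkn2a and Cdkn2b below. Among 5HT mutants the far values were Stxbp2 in S443 (204.0 CPM), Lama5 in S447 (25.3 CPM) and Slc6a3 in S442 (26.1 CPM). Among 5HT wt they were Ret in S383 (57.2 CPM), Phldb2 in S382 (0.911 CPM), Cacna1g in S381 (14.4 CPM), Shox2 in S381 (25.4 CPM), Cdkn2a in S382 (0.364 CPM), Cdkn2b in S383 (0.313 CPM) and Th in S382 (36.1 CPM). Among mDA mutants they were Cpne7 in C42 (1658.0 CPM) and Fev in D161 (17.1 CPM). Among mDA wt they were Slc6a5 in C45 (3.57 CPM), Th in C250 (1017.0 CPM), Tph2 in D147 (28.2 CPM) and Fev in C45 (3.57 CPM).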

How the results depend on the processing

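Interaction calls numbered 45, against 122 by DESeq2, 19 by limma voom, 19 without D161, D170 and D176 and 20 with the mDA libraries of set2 alone. Limma voom kept 10 of the 17 positive and 6 of the 22 single-copy negative calls. Among the genes named, it lost the negative calls of Mkx, Phldb2, Lama5, En1, Ebf3, Anxa1, Cacna1g and Cplx1. The positive calls it lost among them were those of Pltp, Slc6a5, Lcorl and Pea15a. Calls in mDA neurons (305 higher, 141 lower) numbered 719 by DESeq2, 891 with no set term, 274 without D161, D170 and D176 and 103 with set2 alone. Calls in 5HT neurons (170 higher, 43 lower) numbered 404 by DESeq2. Genes called in both numbered 122, against 79 with all 51 libraries and 50 with set2 alone. Leaving out 1 library gave 20 to 44 interaction calls. The cause of these shifts was not tested. On simulated counts, drawn with edgeR's fitted dispersions, DESeq2 made 98 interaction calls, 19 of them false. The alternatives without D161, D170 and D176 and with set2 alone were chosen after seeing the data. No paired analysis was possible because the groups share no replicate numbers.

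The estimates that changed sign were not called, and the cause was not tested. The interaction changed sign by voom for Nwd2 (0.1471), Hoxc8 (-0.0304), Shox2 (-0.6366) and Pitx1 (0.0582), with no sex term for Nwd2 (0.0788), and for Pdzd8 with no set term (-0.0655), with set1 alone (-0.0096) and without D161, D170 and D176 (-0.0843). With set2 alone it did for Eed (-0.0681), Fendrr (3.0072), Hoxd4 (-0.8534), Nwd2 (0.5469), Shox2 (-0.196) and Cdkn2b (0.4181). The mDA effect did for Tph2 by DESeq2 (0.0739), with set1 alone (1.3749) and without D161, D170 and D176 (0.3769), for Slc6a4 with set1 alone (0.0425), for Ret by voom (-0.0272) and with set2 alone (-0.3033), for Cacna1g with no filter (0.0149) and with set2 alone (0.1458), and with set2 alone for Pea15a (-0.1326) and Tle2 (-0.0262). The 5HT effect did for Pltp with no sex term (0.022) and with set1 alone (0.0028) and for Cplx1 with all 51 libraries (-0.021).

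Leaving out 1 library, the interaction ranged over -0.1412 to 0.3803 for Eed, -0.3461 to 1.6884 for Hoxc8, -0.2258 to 1.3366 for Hoxd4, -0.1805 to 0.1814 for Nwd2, -0.0776 to 0.1624 for Pdzd8, -1.9287 to 0.4043 for Pitx1, -1.0796 to 0.4148 for Shox2 and -0.7977 to 0.0362 for Slc6a3. The mDA effect ranged over -0.0645 to 0.0862 for Cacna1g, -0.0504 to 0.1133 for Ret and -0.5931 to 1.0802 for Tph2. The 5HT effect ranged over -0.0594 to 0.1182 for Cplx1, -0.1249 to 0.0473 for En1, -0.1559 to 0.0104 for Fam184a, -0.4624 to 0.1305 for Pltp and -0.4466 to 0.2589 for Th.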

Other observations

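The immediate early genes Fos, Egr1 and Nr4a1, which neurons switch on with activity and with tissue dissociation, were higher in mDA mutants and not called in 5HT neurons. Fos averaged 43.8 CPM in mDA mutants against 7.25 CPM in mDA wt, and 63.1 CPM in 5HT mutants against 19.6 CPM in 5HT wt. The effects on Fos were 2.61 in mDA and 1.57 in 5HT neurons (log2, adjusted p = 6.49e-05 and 0.0948, edgeR). The interaction was called for none of the 13 tested immediate early genes by edgeR, DESeq2 or limma voom, with 1 at an unadjusted p under 0.05 in edgeR. Over all tested genes edgeR called 0.101% positive and 0.166% negative. Nr4a2, which had a negative interaction call, was not on this list.

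Pcgf1, a subunit of variant forms of the other Polycomb complex, PRC1, rose in both types. It averaged 71.0 CPM in mDA mutants against 25.1 CPM in mDA wt, and 76.0 CPM in 5HT mutants against 23.3 CPM in 5HT wt. The effects on Pcgf1 were 1.45 in mDA and 1.70 in 5HT neurons (log2, adjusted p = 5.35e-05 and 0.000168), and their difference was -0.26 (adjusted p = 0.941, edgeR). None of the 11 PRC2 subunits listed was called in either type by edgeR. Of all tested genes 1.81% were higher and 0.836% lower in mDA, and 1.01% and 0.255% in 5HT mutants. These genes were chosen after their values were seen.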
